A study of Mus musculus with 4 samples.

Results

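The 285 regions described here are stretches of the mouse genome where summits of a chromatin immunoprecipitation list lie close together. A summit is the base of highest read pile-up in a peak that the authors called, and a list holds the summits of 1 library. A run was 3 or more summits of 1 list on chromosomes 1 to 19 whose first and last base lay at most 10 kb apart, windows that overlapped were joined, and overlapping runs of different lists were joined into regions. There were 100 runs in the list of p53 replicate 1, 169 in that of p53 replicate 2 and 148 in that of PPAR-alpha. Of the 12398 summits on these chromosomes, 2103 lay in a region. Because summit positions chose the regions, their density is a description and was given no test.

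The libraries came from thymus of 4-week-old p53 AD/AD mice, which carry at both copies of the gene the p53 allele AD, whose protein forms dimers. Reads of the 2 p53 libraries were 50 nt long and those of the PPAR-alpha library 75 nt, which means that effects of antibody and of read length cannot be told apart. All 3 come from the same genotype, with no wild-type group, and the PPAR-alpha library has no replicate. An input library at 50 nt had no summit list and is not analysed here. Nothing in the labels says that the p53 libraries came from separate mice, so the spread between them may be technical.

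Most thymus cells are thymocytes, T cell precursors that rearrange their receptor genes and pass through stages defined by the co-receptors CD4 and CD8. Genes that set T cell identity often carry many separate regulatory elements over a long stretch, and chromatin factors can be found at several of them. Tandem arrays are groups of related genes copied side by side, and the ends of mouse chromosomes hold long satellite repeats. In both of the latter, a read can match several places. p53 binds DNA through a motif built of half-sites, while PPAR-alpha is a nuclear receptor of lipid metabolism that binds direct repeats of the letters AGGTCA.

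The sequences below show what lay under summits at 5 transcription starts inside regions. They are all starts with a summit in the 250 bases before them, among regions that had runs in all 3 lists and lay at thymocyte genes or tandem arrays. Each is the 250 bases before the start, 5′ to 3′ on the strand of the gene, from the RefSeq promoter table of GRCm38.p6. Capitals mark the 11 bases centred on a summit.
Ugt1a1: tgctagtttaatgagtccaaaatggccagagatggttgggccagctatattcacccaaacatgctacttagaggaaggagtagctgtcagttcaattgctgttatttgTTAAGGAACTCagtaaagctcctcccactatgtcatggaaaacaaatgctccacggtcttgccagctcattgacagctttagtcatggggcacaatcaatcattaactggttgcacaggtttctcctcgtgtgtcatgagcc
Cd3g: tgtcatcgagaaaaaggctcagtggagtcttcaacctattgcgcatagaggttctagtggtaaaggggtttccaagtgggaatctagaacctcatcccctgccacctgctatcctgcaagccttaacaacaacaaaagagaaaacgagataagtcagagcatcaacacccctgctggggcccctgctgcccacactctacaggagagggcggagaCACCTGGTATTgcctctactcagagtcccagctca
Ikzf1, upstream start: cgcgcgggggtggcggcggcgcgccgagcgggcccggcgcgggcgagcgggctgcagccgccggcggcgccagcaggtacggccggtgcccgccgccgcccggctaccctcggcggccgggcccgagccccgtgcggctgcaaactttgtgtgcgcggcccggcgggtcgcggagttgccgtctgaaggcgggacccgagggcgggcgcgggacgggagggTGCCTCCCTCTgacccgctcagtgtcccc
Ikzf1, downstream start: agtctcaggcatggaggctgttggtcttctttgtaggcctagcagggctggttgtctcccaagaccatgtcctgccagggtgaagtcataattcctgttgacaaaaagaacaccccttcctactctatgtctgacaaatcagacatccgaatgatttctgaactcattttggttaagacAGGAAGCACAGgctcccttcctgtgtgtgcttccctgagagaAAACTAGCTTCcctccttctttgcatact
Ccnd3: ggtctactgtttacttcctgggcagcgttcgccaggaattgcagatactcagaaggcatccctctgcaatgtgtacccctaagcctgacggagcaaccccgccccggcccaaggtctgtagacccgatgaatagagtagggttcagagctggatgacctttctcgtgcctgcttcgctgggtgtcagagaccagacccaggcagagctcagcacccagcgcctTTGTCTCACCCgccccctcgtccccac
At Ugt1a1, an enzyme that conjugates bilirubin (chr1:88211709-88211958, plus strand), the capitals mark a summit of p53 replicate 1 that lay 137 bases before the start. At Cd3g, a chain of the T cell receptor complex (chr9:44980432-44980681, minus strand), they mark a PPAR-alpha summit 30 bases before the start. Ikzf1 encodes Ikaros, a zinc finger factor of lymphocytes, and had summits at 2 of its starts. The PPAR-alpha summit lay 24 bases before the start at both, in chr11:11685675-11685924 and in chr11:11689927-11690176, and the latter also held a summit of p53 replicate 2 at 66 bases. At Ccnd3, which encodes cyclin D3 (chr17:47504801-47505050, plus strand), a summit of p53 replicate 1 lay 22 bases before the start.

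These windows were read for 7 motifs on both strands. The motifs were the p53 half-site (by name), AGGTCA, its direct repeat (AGGTCA, any base, AGGTCA), which contains the former, the ETS site CCGGAAGT, the RUNX site TGTGGT, the TCF and LEF core CTTTGA and the telomere repeat TTAGGG. At the downstream Ikzf1 start, a match to the p53 half-site spanned bases 29 to 20 before the start, which takes in the PPAR-alpha summit. At Ccnd3, AGGTCA matched on the opposite strand at bases 97 to 92 and TTAGGG at bases 174 to 169, both away from the summit. The other 3 windows held none of the 7 motifs.

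Over all 20085 coding promoters of 300 bases in that table (250 before and 50 after the start), 7.32% held the p53 half-site and 14.7% held AGGTCA. Of the 208 promoters inside a region, 3.85% (8) held the p53 half-site and 11.5% (24) held AGGTCA. The direct repeat was in 0 of the 208, beside 9 promoters in all. The ETS site was in 5.77% of promoters inside a region, in 5.28% of all promoters and in 10.2% of the 4030 promoters with a summit within 1 kb but no region. Promoters with a nearby summit but no region held the p53 half-site at 5.48% and AGGTCA at 10.4%, so lower shares than over all promoters were not particular to regions. Subsets of the 208 differed in direction on small counts. At the 24 promoters in regions at thymocyte genes, the p53 half-site was in 2 (8.33%), AGGTCA in 5 (20.8%) and the ETS site in 1 (4.17%). At the 33 in regions with runs in all 3 lists, these numbers were 1 (3.03%), 5 (15.2%) and 5 (15.2%).

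CpG content also differed between these sets of promoters. The median ratio of observed to expected CpG was 0.586 over all promoters, 0.785 over the 208 inside a region and 0.843 over the 4030 with a nearby summit outside any region. At the 24 promoters inside regions at thymocyte genes the median was 0.440, with a GC content of 53.7% beside 57% over all promoters. The promoters of Ugt1a1 and Cd3g printed above are CpG-poor, at ratios of 0.130 and 0.183, and the upstream Ikzf1 start is CpG-rich, at 1.06.

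Reads behind each list are not known, so the number of summits and their scores stand in for depth. The score is the authors', read as −log10 of a p- or q-value, and it is described within a list only. Runs held 11.9% of the autosomal summits of p53 replicate 1, 14.6% of p53 replicate 2 and 14.6% of PPAR-alpha. The median score in runs and outside them was 3.99 and 3.99 in p53 replicate 1, 3.62 and 3.62 in replicate 2, and 5.30 and 4.70 in PPAR-alpha. Scores under 5 made up 64.1% of the summits in runs and 72.3% of those outside in p53 replicate 1, 70.6% and 74.2% in replicate 2, and 48.7% and 52.5% in PPAR-alpha. Scores of 10 or more made up 10.96% and 4.58%, 6.78% and 3.82%, and 16.9% and 15.7% in the same order. Medians of the p53 lists were thus alike in and outside runs, while their high scores took a larger share in runs. A few regions supplied part of that share. The region at the start of chromosome 9 held 15 and 16 p53 summits, with median scores of 139 and 125. A region on chromosome 2 held 4 and 4, with medians of 707 and 793. The shares were not computed without such regions, so they do not describe runs in general.

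Most runs were short. Exactly 3 summits made up 64 of 100 runs of p53 replicate 1, 104 of 169 of replicate 2 and 89 of 148 of PPAR-alpha. The median run length was 6620.5, 5262 and 6324 bp, and the median distance between neighbouring summits of a run was 2010, 1541.5 and 1805 bp. The closest neighbours lay 444, 337 and 373 bp apart. Joined regions ranged from 1075 to 98661 bp with a median of 6269 bp, and 10 exceeded 20 kb.

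A run of 1 list was often a scatter of summits in the next. Runs were in 1 list alone at 194 regions (68.1%), in 2 lists at 55 (19.3%) and in all 3 at 36 (12.6%, exact 95% interval 9.01 to 17.1%). Of the regions in 1 list, 37 belonged to p53 replicate 1, 93 to p53 replicate 2 and 64 to PPAR-alpha. Absence of a run did not always mean absence of summits. At least 1 summit of every list lay in 163 of 285 regions (57.2%), a count that includes the 36 with runs in all 3.

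The replicate pair gives the spread against which p53 and PPAR-alpha can be read. Of the 100 runs of p53 replicate 1, 47 (36.9 to 57.2%) overlapped a run of replicate 2 and 52 (41.8 to 62.1%) overlapped a run of PPAR-alpha. Of the 169 runs of replicate 2, 28.4% (21.7 to 35.8%) overlapped a run of replicate 1 and 37.9% (30.5 to 45.6%) overlapped one of PPAR-alpha. With all summits, the intervals overlapped in each pair. Keeping summits that score 3 or more left 57 of 100, 34 of 169 and 119 of 148 runs, so that 26.3% (15.5 to 39.7%) of the replicate 1 runs overlapped a replicate 2 run and 59.6% (45.8 to 72.4%) a PPAR-alpha run. A list with fewer runs left can be overlapped less often, so these 2 shares give no comparison of p53 with PPAR-alpha. At least 1 PPAR-alpha summit lay in 82.0% of the runs of replicate 1 and in 78.1% of those of replicate 2. Between the p53 replicates the shares were similar. A replicate 2 summit lay in 81.0% of the replicate 1 runs, and a replicate 1 summit in 72.2% of the replicate 2 runs.

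Single summits were compared next. Within 100 bp of a summit of replicate 2 lay 20.5% of the summits of replicate 1 in runs and 20.8% of those outside. A PPAR-alpha summit lay that close to 19.6% of the replicate 1 summits in runs and to 17.1% of those outside. The exact 95% intervals overlapped in both comparisons, at 16.8 to 24.6% beside 19.4 to 22.3% and at 15.9 to 23.7% beside 15.8 to 18.4%. Within 100 bp, summits of replicate 1 in runs were thus shared about as often as those outside. Sharing of whole stretches was not compared with stretches outside runs.

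Regions were sorted into 5 classes. A region counted as a chromosome end when it lay beyond the outermost annotated gene or within 500 kb of it, and next as a thymocyte gene when it lay within 20 kb of a gene of an 88-gene thymocyte list. It counted as a tandem array with 4 or more genes of 1 symbol root, or 4 or more predicted genes, within 50 kb. All others were split by whether a coding gene lay within 20 kb. This gave 6 regions at chromosome ends, 34 at thymocyte genes, 21 at tandem arrays, 194 at other coding genes and 30 with no coding gene.

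**Figure D1:**
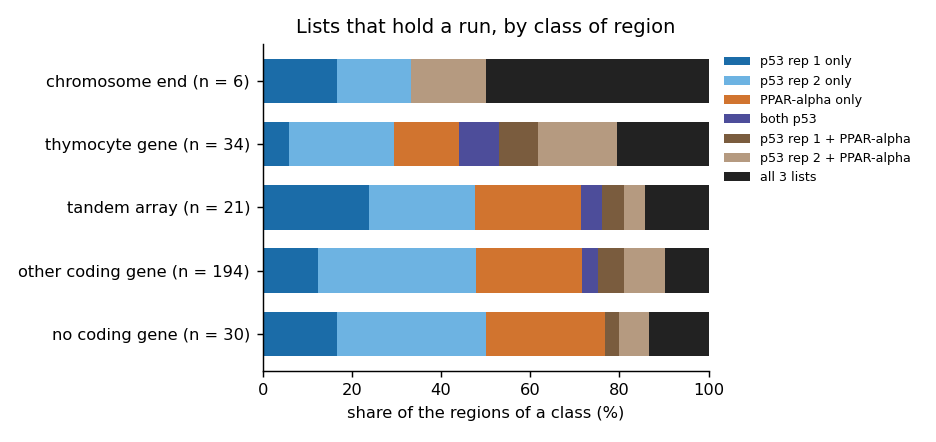
Share of the regions of each class (horizontal axis, percent) by the lists that hold a run there, with the number of regions beside each class name. Runs in all 3 lists made up 3 of 6 regions at chromosome ends and 7 of 34 at thymocyte genes, beside 19 of 194 at other coding genes.

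Sharing differed in size between the classes, within wide intervals. A run in all 3 lists was found at 7 of 34 regions at thymocyte genes (20.6%, 8.70 to 37.9%) and at 19 of 194 at other coding genes (9.79%, 6.0 to 14.9%). At chromosome ends it was 3 of 6 (11.8 to 88.2%), at tandem arrays 3 of 21 (3.05 to 36.3%) and away from coding genes 4 of 30 (3.76 to 30.7%). All of these intervals overlapped that of other coding genes. Regions at thymocyte genes were longer, with a median of 8322 bp and 7 summits over the 3 lists, against 5905.5 bp and 5 summits at other coding genes.

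**Figure D2:**
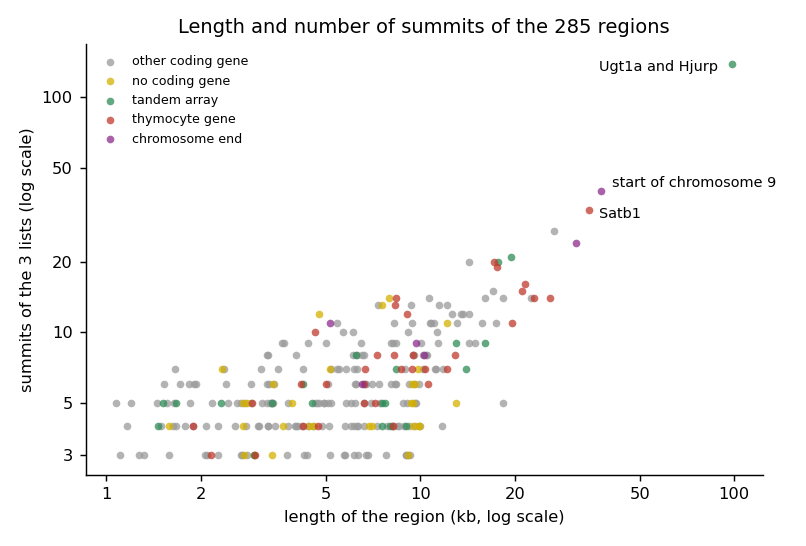
Length of each of the 285 regions (horizontal axis, kb, log scale) against its summits in the 3 lists together (vertical axis, log scale), coloured by class. The region at Ugt1a and Hjurp, with 139 summits over 98661 bp, stands apart from the rest, whose highest is 40.

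A larger share of the thymocyte list than of all coding genes lay near regions. This list and the gene lists below were chosen with earlier results of these data known, so the shares are a description. The background is all coding genes, not those that hold a summit. Of the 86 coding members of the list on chromosomes 1 to 19, 32 (37.2%) lay within 20 kb of a region, beside 2.54% of all 20560 coding genes. Runs of p53 replicate 1 lay within 20 kb of 17 of the 86 (background 1.07%), those of p53 replicate 2 near 25 (background 1.43%) and those of PPAR-alpha near 23 (background 1.27%). Regions with runs in all 3 lists lay near 9 of the 86 (background 0.375%). These 9 were Ccnd3, Cd3d, Cd3e, Cd3g, Cd8b1, Ikzf1, Satb1, Tcf7 and Zfp36l2.

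Markers of other cells that a thymus can hold gave none. Within 20 kb of any region lay 0 of 15 B cell markers, 0 of 15 myeloid markers, 0 of 15 markers of thymic epithelium, 0 of 15 adipocyte markers and 0 of 13 erythroid markers. At the background of 2.54%, lists of this size would hold few such genes in any case. The median gene length was 17180 bp for genes within 20 kb of a region and 17574 bp for all coding genes. For the 302 coding genes that a region overlapped it was higher, at 21224.5 bp.

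**Figure D3:**
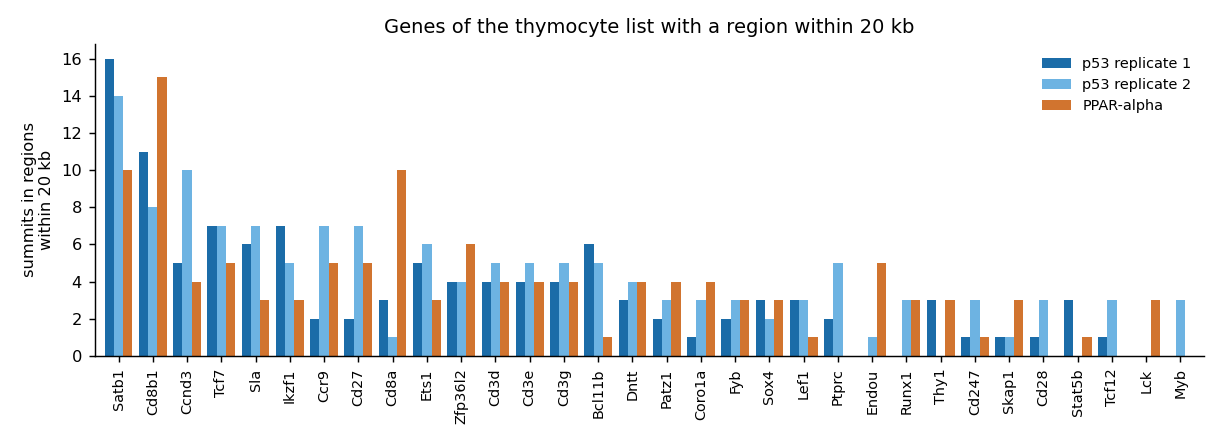
Summits of each list (vertical axis, number) in the regions within 20 kb of each of the 32 thymocyte genes (horizontal axis), ordered by the sum of the 3 lists. A region within 20 kb of more than 1 gene is counted at each, so the region at Cd8a is also counted at Cd8b1. Satb1 leads with 16, 14 and 10 summits over 2 regions, and Cd8a had 10 PPAR-alpha summits beside 3 and 1 of p53.

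The longest region at a thymocyte gene lay at a transcription factor gene. At Satb1, a chromatin organizer, a region of 34394 bp (chr17:51800749-51835142) held 6 PPAR-alpha summits, beside 15 in p53 replicate 1 and 12 in p53 replicate 2. Its highest scores were 4.70 and 8.48 in the p53 lists, and 86.7 in the PPAR-alpha list. Replicate 1 formed 1 run over the whole region. Replicate 2 formed 2 runs of 6 summits, of 8309 and 7000 bp, with a gap between them. Satb1 lies on the minus strand. The highest PPAR-alpha summit lay 168 bases downstream of its start at chr17:51833290, and the next in that list scored 5.30.

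Tcf7, which encodes the factor TCF-1, held 7, 7 and 5 summits over 17540 bp (chr11:52266775-52284314), in the order p53 replicate 1, p53 replicate 2, PPAR-alpha that is kept from here on. Its highest scores were 7.93, 3.62 and 8.57. A separate region 26059 bp from Tcf7 (chr11:52309442-52321649) overlapped the lncRNA gene Gm30217 and held 3, 4 and 4 summits. Its highest scores, 18.7, 34.8 and 214, were all above those at Tcf7 itself. By the 20 kb limit this region counts as away from coding genes.

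Ikzf1 held 7, 5 and 3 summits over 21167 bp (chr11:11678577-11699743), with no score above 5.91 in any list. Zfp36l2, whose protein promotes mRNA decay, held 4, 4 and 6 summits over 8349 bp, with a highest score of 23.4 for PPAR-alpha. These 2 regions had runs in all 3 lists, as did Satb1 and Tcf7.

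Lef1, a relative of Tcf7, had 3, 3 and 1 summits and so a run in the p53 lists alone. Ets1, a founding ETS factor, had 2 regions, with 3, 5 and 0 summits in the first and 2, 1 and 3 in the second. Bcl11b, which commits cells to the T lineage, also had 2, with 2, 4 and 1 summits and with 4, 1 and 0. PPAR-alpha runs were thus absent at Lef1 and Bcl11b, where its lone summits scored 23.4 and 10.7.

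Runx1 held 0, 3 and 3 summits, Sox4 held 3, 2 and 3, Tcf12 held 1, 3 and 0, Stat5b held 3, 0 and 1, and Myb held 0, 3 and 0. Patz1, a zinc finger factor that lies near the start of chromosome 11 and counts as a chromosome end, held 2, 3 and 4. In this group the 2 p53 libraries differed from each other by up to 3 summits, as they did at Runx1, Stat5b and Myb.

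The regions over the co-receptor genes differed in which list had the most summits. Cd8b1, the CD8 beta chain, held 8, 7 and 5 summits over 17211 bp (chr6:71324314-71341524). Its neighbour Cd8a, the alpha chain, held 3, 1 and 10 over 25995 bp (chr6:71353831-71379825). PPAR-alpha was thus lowest in the first region and highest in the second, each time outside the range of the 2 p53 libraries. The second region also lay within 20 kb of Cd8b1. Both regions together gave Cd8b1 11, 8 and 15 summits, with PPAR-alpha highest. With 1 PPAR-alpha library the difference between the 2 regions could not be tested.

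**Figure D4:**
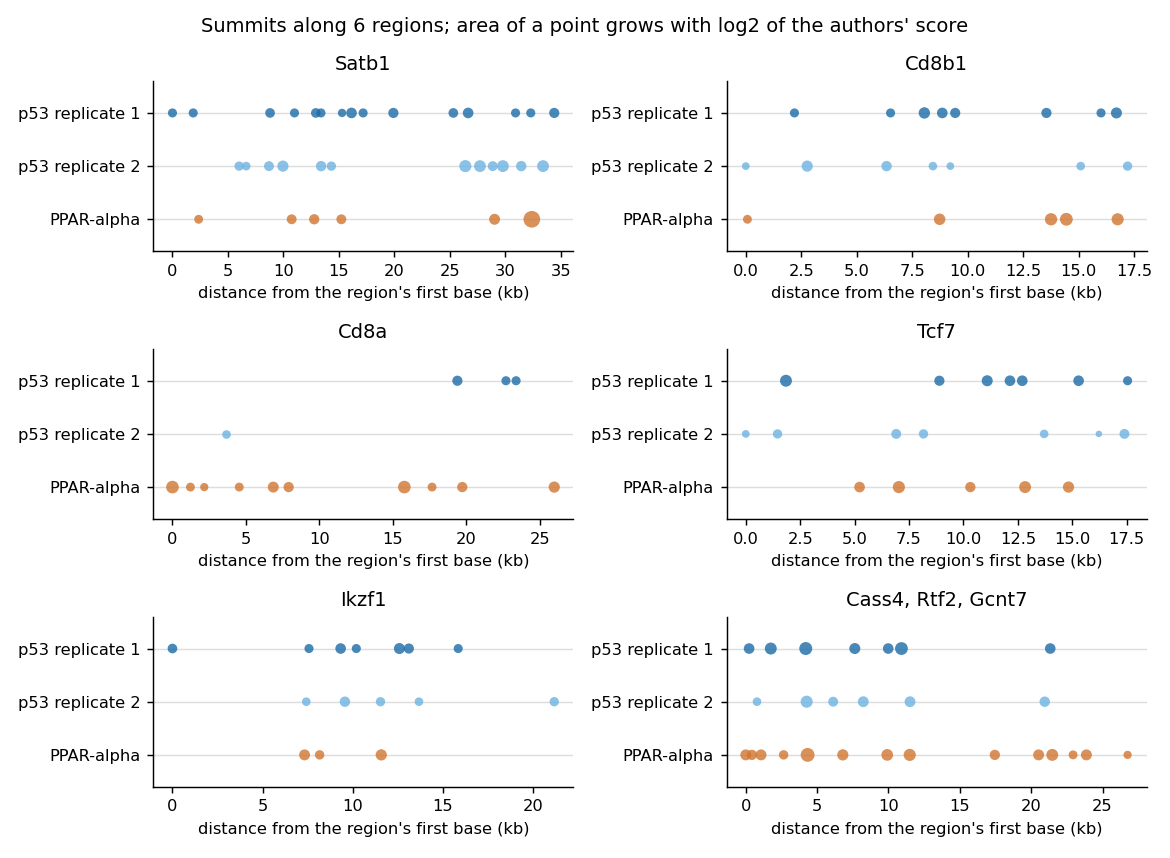
Positions of summits along 6 regions (horizontal axis, kb from the first base of the region), with a line for each list and the area of a point growing with log2 of the authors' score. At Satb1 the 15 summits of p53 replicate 1 spread over the whole 34394 bp and those of replicate 2 lay in 2 groups of 6, and at Cd8a the PPAR-alpha list had 10 summits where p53 had 3 and 1.

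The genes of the T cell receptor complex and its signalling followed. A region of 8295 bp over Cd3g and Cd3d (chr9:44979080-44987374), with Cd3e within 20 kb, held 4, 5 and 4 summits. Cd247, the zeta chain, held 1, 3 and 1. Lck, the kinase that acts first after the receptor, held 0, 0 and 3, a run of PPAR-alpha with no p53 summit in either library.

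Adaptors and surface molecules were less evenly shared. Sla, which encodes a Src-like adaptor and lies inside Tg, held 6, 7 and 3 summits over 21633 bp, with runs in the p53 lists alone. Cd27, a co-stimulatory receptor, held 2, 7 and 5 over 23100 bp that also covered Vamp1 and Tapbpl. Cd28 held 1, 3 and 0, and Ptprc, the phosphatase CD45, held 2, 5 and 0.

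Thy1 held 3, 0 and 3, Skap1 held 1, 1 and 3, Fyb held 2, 3 and 3, and Coro1a, an actin-binding protein, held 1, 3 and 4. Ccr9, the receptor that answers a chemokine of the thymus, had 2 regions, with 1, 4 and 5 summits and with 1, 3 and 0. Dntt, which adds bases at receptor gene joints, held 3, 4 and 4 over 19640 bp. Endou, an endoribonuclease, held 0, 1 and 5. Groups of small counts such as these moved by several summits between the p53 replicates too.

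Ccnd3, needed for thymocyte proliferation, had a region with 4, 5 and 3 summits over its start, and a second with 1, 5 and 1. The highest scores in the first were 9.72, 6.72 and 25.2, and the PPAR-alpha summit in the second scored 32.0. The second region was a run of p53 replicate 2 alone, with 1 summit of each other list.

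Over the 36 regions with runs in all 3 lists, the PPAR-alpha count was above both p53 counts at 11, below both at 11 and within their range at 14. Replicate 1 exceeded replicate 2 at 7 of the 36 and fell short of it at 18. Neither factor had the higher count throughout the shared regions.

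The largest region of all was classed as a tandem array by its overlap with Ugt1a genes. From the start of Ugt1a1 to Trpm8 (chr1:88211822-88310482) a stretch of 98661 bp held 48, 59 and 32 summits. It overlapped 9 Ugt1a genes, glucuronosyltransferases that share their last exons, as well as Mroh2a, Hjurp (a chaperone of centromeric chromatin) and Trpm8. The coding starts inside it were 4, those of Ugt1a1, Mroh2a, Hjurp and Trpm8. It thus did not hold the starts of the other Ugt1a genes, and much of it lay at genes outside that family. The median spacing was 1738, 1523 and 2485 bp, and the highest scores were 23.1, 38.6 and 35.0. This region alone held 139 of the 280 summits in regions classed as tandem arrays, so that total mostly does not describe repeated gene copies.

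The receptor loci were next among the arrays. The region over the T cell receptor beta joining segments (chr6:41540928-41558556) held 4, 9 and 7 summits, with a highest score of 69.5 for PPAR-alpha. The region at the constant gene and last joining segments of the alpha chain, 2006 bp from Dad1 (chr14:54217406-54233479), held 1, 1 and 7 summits, with a highest PPAR-alpha score of 130. The beta locus had runs in all 3 lists and the alpha locus in PPAR-alpha alone. The larger of 2 regions in the immunoglobulin heavy chain variable genes held 5, 7 and 9 summits over 19500 bp, and the smaller held 2, 1 and 5.

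Gimap1, of a family of lymphocyte GTPases, held 3, 2 and 4 summits with a highest PPAR-alpha score of 56.7. The 5 array regions that overlapped histone genes held 11, 7 and 5 summits in all, and the 2 that overlapped tRNA genes and no histone gene held 1, 3 and 6. Besides the 15 regions at named families, 6 were called arrays from predicted genes alone, with 7, 14 and 10 summits. A region over Gm38510 and C130026I21Rik (chr1:85270097-85280722) held 4, 4 and 6 summits with highest scores of 29.9, 33.6 and 99.5. Its gene symbols share no root, so it counted among other coding genes.

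At chromosome ends the scores ranged widely. The region at the start of the assembled sequence of chromosome 9 (chr9:3000415-3038022) held 15, 16 and 9 summits with highest scores of 904, 1059 and 1563. The lowest position in any list was 3000415, the first base of this region. The region at the start of chromosome 16 (chr16:3233447-3264876) was longer than most at 31430 bp, held 3, 8 and 13 summits and scored at most 6.24, 7.58 and 13.8. The p53 lists thus had more summits at the start of chromosome 9 and the PPAR-alpha list more at that of chromosome 16, while every list scored higher at chromosome 9.

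The other 4 regions at chromosome ends were smaller. That of chromosome 18 held 3, 4 and 4 summits with highest scores of 87.6, 140 and 183. At Sfi1, near the start of chromosome 11, the counts were 2, 4 and 2 and the highest scores 59.3, 116 and 114. A region on chromosome 17, 30523 bp from Scaf8, held 3, 2 and 1 with highest scores of 39.7, 48.9 and 91.8. Patz1, given above, reached 7.07 at most.

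A score of 50 or more in any list was found at 4 of 6 regions at chromosome ends and 3 of 21 at tandem arrays. It was found at 1 of 34 at thymocyte genes, 2 of 194 at other coding genes and 2 of 30 away from coding genes. The 3 at arrays were the T cell receptor beta and alpha regions (69.5 and 130) and Gimap1 (56.7), each in the PPAR-alpha list. Of the 2 away from coding genes, 1 was the region 26059 bp from Tcf7 (214 in that list). The classes thus split T cell loci, so these counts do not compare such loci with other places. The highest of all belonged to a region of 4746 bp on chromosome 2 (chr2:98662383-98667128), 1030711 bp from the nearest coding gene, Lrrc4c. It held 4, 4 and 4 summits with highest scores of 7038, 7057 and 9205. In the PPAR-alpha list the highest score at a thymocyte gene was 86.7, at Satb1, where that list had 6 summits.

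Away from coding genes, 2 further regions had runs in all 3 lists. A region on chromosome 17 over the lncRNA gene 2700054A10Rik (chr17:13541808-13549771) held 6, 3 and 5 summits. A region over the lncRNA gene Gm4258, 156664 bp from Ptprc (chr1:137898655-137906195), held 5, 5 and 3. Malat1, an abundant nuclear lncRNA named here after its values were seen, held 1, 3 and 0.

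Among the 194 regions at other coding genes, the largest lay over Cass4, Rtf2 and Gcnt7 (chr2:172429608-172456363). Its counts were 7, 6 and 14 over 26756 bp, with PPAR-alpha above both p53 libraries. Tspoap1 held 6, 6 and 8 summits with highest scores of 22.0, 22.9 and 48.8. Rcsd1 held 4, 4 and 6, Mrpl58 with Atp5h and Kctd2 held 3, 4 and 7, Rhof with Setd1b held 3, 4 and 6, and Snai3 with Rnf166 and Ctu2 held 4, 5 and 5.

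Runs of 1 list alone with the most summits differed in how much the other lists held. For p53 replicate 1 they lay at Fam169b, with 5, 0 and 0 summits, and at Edem1, with 5, 1 and 2. For replicate 2 they lay at Ptprc, at Myo18a, with 1, 5 and 3, and at the histone genes H3c13 and H2bc18, with 1, 5 and 1. For PPAR-alpha they lay at the alpha chain locus near Dad1, at Map3k20, with 1, 3 and 7, and at Kcnn4, with 2, 2 and 5. At Fam169b the region of 18396 bp rested on 1 p53 library.

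Targets of p53 and of PPAR-alpha were counted in the same way. Of 39 p53 targets, 8 (20.5%) lay within 20 kb of a region, as did 3 of 40 PPAR-alpha targets (7.50%), beside 2.54% of all coding genes. None of either list lay near a region with runs in all 3 lists, where the background was 0.375%. Btg2, an antiproliferative gene, held 3, 3 and 9 summits over 16992 bp. Named after their values were seen, Trp53inp1 held 2, 4 and 5, the death receptor gene Fas held 0, 3 and 0, and Ucp2, a mitochondrial carrier gene and PPAR-alpha target, held 0, 0 and 3 with a highest score of 37.1.

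Summits in runs lay away from transcription starts more than other summits did. Chromosome 18 has no starts in the table used, so this holds for the other 18 autosomes and 279 regions. Within 1 kb of a coding start lay 20.9% of the summits in runs of p53 replicate 1 (17.1 to 25.1%) and 52.0% of those outside (50.2 to 53.8%). In replicate 2 it was 24.7% and 50.9%, and in PPAR-alpha 19.2% and 44.0%. The rule fixed part of this, since summits of a run spread over several kilobases and only some can lie at 1 start.

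The other summits in runs lay on the flanks of starts and farther away. At 1 to 10 kb downstream lay 22.1% of them in p53 replicate 1, 21.3% in replicate 2 and 21.1% in PPAR-alpha, against 7.47%, 8.26% and 7.52% outside runs. At 1 to 10 kb upstream it was 15.7%, 11.7% and 12.2%, against 5.46%, 5.18% and 6.04%. More than 10 kb downstream lay 19.7%, 21.6% and 22.5% of the summits in runs, against 18.8%, 19.5% and 22.3% outside. More than 10 kb upstream it was 21.6%, 20.6% and 24.9%, against 16.3%, 16.2% and 20.1%. The stretches beyond 10 kb thus held more of the summits in runs than the flanks did, and the flanks differed more, as a ratio, from summits outside runs.

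**Figure D5:**
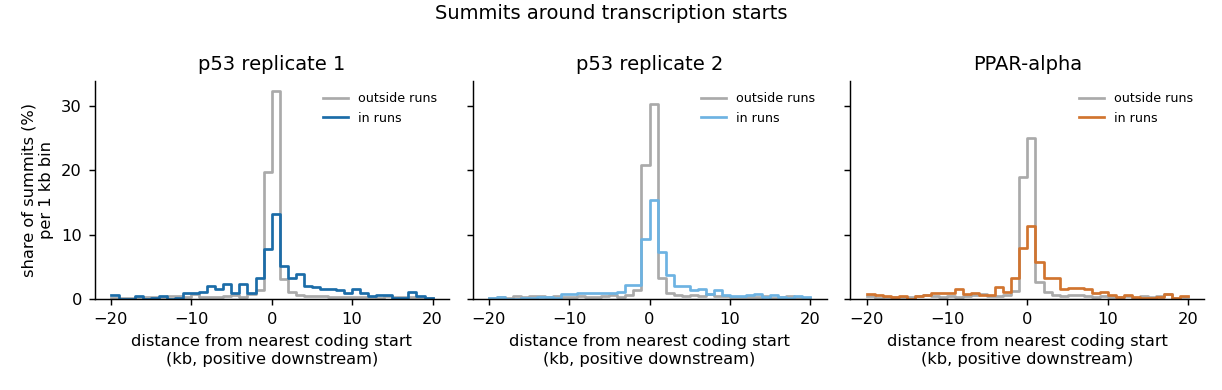
Share of summits (vertical axis, percent per 1 kb bin) by distance from the nearest coding start (horizontal axis, kb, positive downstream), for summits in runs and outside runs of each list. Summits outside runs peak at the start, and those in runs have a lower peak with wider flanks in all 3 lists.

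Regions at thymocyte genes had a smaller share of their summits near starts than those at other coding genes. Within 1 kb of a start lay 19.2%, 17.2% and 20.4% of their summits in the 3 lists, against 32.9%, 35.1% and 30.05% at other coding genes. The direction was alike in 3 of 3 lists. The exact intervals were apart in p53 replicate 2 (10.98 to 25.1% against 30.7 to 39.7%) and overlapped in the other lists. They take each summit as separate although summits were chosen in groups, so they may be too narrow. A coding start lay inside 15 of the 34 regions at thymocyte genes (44.1%) and inside 104 of the 190 at other coding genes with starts in the table (54.7%).

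The limit of 10 kb left near misses on both sides. Just inside it were triples at Prex1, spanning 9987 bp, at Jmjd6 with Mettl23 and Srsf2, spanning 9939 bp, and near Chd2, spanning 9915 bp. Just outside it were triples at Pagr1a with Prrt2 and Maz, spanning 10113 bp, near Zfp982, spanning 10183 bp, and at Brd2 with H2-DMa, spanning 10194 bp.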

How the data were processed

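Summit lists of 3 libraries were used as the authors deposited them, 1 list a library. The deposited score column was taken to be −log10 of a p-value or q-value, judging by its values and by the layout of the lists. The tools were MACS2 2.1.2, Bowtie2 2.3.4.2 and Picard 2.9.0, per the submitters' processing notes, which give no roles. Those notes name the build GRCh38 for mouse tissue. Positions fitted the mouse build GRCm38: 48.2%, 47.1% and 40.4% of summits lay within 1 kb of a coding start, and at most 3.41% after a move of 50 kb. Read numbers and calling settings were not given in the sources, so depth is unknown.

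Runs, regions and classes were computed in Python 3.11.15 with pandas 2.3.3, numpy 2.4.6 and scipy 1.17.1, and run finding was tested on simulated data. Genes, starts and promoters are those of RefSeq GRCm38.p6. From that gene table, 328 entries with starts below 3 Mb were left out as unplaced. This edge correction was chosen after the files were seen. Intervals of shares are Clopper-Pearson (exact, 95%) and cover only counting error. Those over summits take summits of 1 region as separate, so they may be too narrow. Members of a list share a library and are not replicates, so no p-value was computed. The rule for naming took the 12 regions with the most summits, the 8 with the most in each class and every thymocyte gene within 20 kb. It also took the 3 largest runs of each list alone and 3 triples on each side of the span limit. Not every region under it is described above. A result under this rule is not reported here. The regions, gene lists, motifs and rules were chosen with earlier results of these data known. No genome sequence was used here.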

Additional observations from a re-analysis of the deposited data

Results flagged for a closer look

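Chromosomes X and Y stand outside the regions above. On chromosome Y, the list of p53 replicate 1 had 4 of its 5 summits in 1 run, and that of p53 replicate 2 had 7 of its 8 in 2 runs, all with Gm52481 as the nearest coding gene. The PPAR-alpha list had 3 summits on chromosome Y and 0 runs. On chromosome X the lists had 6, 9 and 16 summits and 0 runs. These counts drew attention because they lie in data that no comparison used, and there is no control list to set beside them.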

How the results depend on the processing

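No paired analysis was possible because no result comes from a test and the PPAR-alpha library has no replicate. Over the alternatives run, 48 values stayed within their bounds and 25 moved, and the cause was not tested. The bounds were wide, so a value within them is not thereby stable. With a span of 20 kb, 393 regions in place of 285 and 52 in all 3 lists in place of 36 still counted as within bounds. So did 9 regions at chromosome ends in place of 6, with a span of 5 kb. The count of 285 regions moved most with the number and strength of summits. It was 89 with at least 4 summits in a run, 147 with summits scoring 3 or more and 46 with those scoring 5 or more. Under these settings in turn, regions in all 3 lists numbered 10, 12 and 7, regions in 1 list 55, 101 and 34, regions at thymocyte genes 18, 19 and 11, and regions at tandem arrays 6, 12 and 6. With a span of 5 kb, 21 regions had runs in all 3 lists. Distances of 100 kb gave 33 regions at arrays, and an edge of 2000 kb gave 14 at chromosome ends. The share of p53 replicate 1 runs that overlap a replicate 2 run was 58.3% at 5 kb, 60% with at least 4 summits, and 26.3% and 69.2% for scores of 3 and 5 or more. With scores of 5 or more, 92.3% of 13 replicate 1 runs overlapped a PPAR-alpha run. For replicate 2 and PPAR-alpha the share was 61.8% and 66.7% for scores of 3 and 5 or more. These limits on the score left 57, 34 and 119 runs at 3 or more and 13, 15 and 43 at 5 or more, so the shares rest on lists shortened unequally.

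Without p53 replicate 1 there were 249 regions and without p53 replicate 2 there were 192. Regions in 1 list then numbered 185 and 140, regions at thymocyte genes 33 and 26, at arrays 16 and 16, and at chromosome ends 5 and 5. Regions in all 3 lists have no value there. Joining regions under 5 kb apart changed no count. The settings added after the data were seen, without predicted genes and with symbol roots of 2 letters, gave 15 and 21 regions at arrays. Keeping 1 summit for each called peak was not run, since 0 peak names show several summits. Weak summits and unknown read numbers limit what the absence of a run can show.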
